A study of Saccharomyces cerevisiae with 4 samples.

Results

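The genes described are 5 yeast genes of messenger RNA methylation, out of 6659 genes with an expression value: IME4, MUM2, SLZ1 and KAR4 of the m6A writer, and PHO92, the m6A reader. They were selected on their known function, by a list drawn up with their RPKM in all 4 libraries in view, so their levels and changes are descriptions, and no test is drawn from them. The libraries hold RNA without ribosomal RNA from haploid budding yeast (Saccharomyces cerevisiae, BY4741/2 background, his-ura-leu-). Cells had reached mid-log phase in YPD, a rich glucose medium, at an optical density of 0.5 to 0.6. There was 1 library for each of 4 strains: wild type (WT); snf2∆, with SNF2 replaced by the NatMX marker; ume6∆, with UME6 replaced by KanMX; and ume6∆snf2∆, which carries both markers. Swi/Snf moves nucleosomes and takes its energy from the ATPase Snf2, while Ume6 binds DNA and represses genes of early meiosis in growing cells. None of the labels states a mating type. In bulk RNA, fewer cells that express a gene and less RNA per cell cannot be told apart.

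N6-methyladenosine (m6A) is a methyl mark on adenosines inside messenger RNA. In budding yeast it is laid down mainly as cells enter meiosis, and it is scarce in growing haploids. Ime4 is the catalytic subunit and resembles METTL3 of animals, Mum2 resembles WTAP, Kar4 resembles METTL14, and Slz1 helps bring the complex to its place of action in the nucleus. Kar4 has a further role in mating, as a partner of the transcription factor Ste12. Vir1 and the dynein light chain Dyn2 belong to the same complex. Pho92 carries a YTH domain, the fold that recognizes the methylated base.

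Ume6 binds a promoter element called URS1, and the sequences around it are shown first because the members with the largest changes carry it. The window searched was 300 bases, from 250 before the annotated gene start to 50 into the gene, read from the R64 genome. The core GGCGGC, on either strand, was present in 5.13% of 6001 promoters. A long form of 10 bases, the core with 2 set bases on each side, was present on either strand in 0.417%, or 25 promoters. PHO92 and SLZ1 each held 1 copy of the long form. The whole windows follow, 5′ to 3′ on the gene's strand, with the long form in capitals; SLZ1 shows it as it was searched and PHO92 shows its reverse complement.

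PHO92, chrIV:1224345-1224644, minus strand: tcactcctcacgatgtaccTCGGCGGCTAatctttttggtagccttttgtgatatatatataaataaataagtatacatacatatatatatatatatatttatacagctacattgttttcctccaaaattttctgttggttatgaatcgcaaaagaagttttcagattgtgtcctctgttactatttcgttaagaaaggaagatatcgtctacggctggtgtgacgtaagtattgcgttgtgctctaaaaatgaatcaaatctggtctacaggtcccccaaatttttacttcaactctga
SLZ1, chrXIV:271122-271421, minus strand: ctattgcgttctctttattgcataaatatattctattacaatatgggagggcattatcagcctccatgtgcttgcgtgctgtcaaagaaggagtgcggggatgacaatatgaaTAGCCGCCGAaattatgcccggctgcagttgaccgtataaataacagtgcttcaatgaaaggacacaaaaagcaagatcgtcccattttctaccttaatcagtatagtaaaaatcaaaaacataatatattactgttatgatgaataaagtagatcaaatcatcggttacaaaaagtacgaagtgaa

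The long form lay 231 to 222 bases before the start of PHO92 and 137 to 128 bases before that of SLZ1. IME4 and VIR1 held the core without the long form, and the windows of MUM2, KAR4 and DYN2 held neither. The sites of the 4 genes are set side by side below in the direction that reads GCCGCC, with those 6 core bases in capitals.

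PHO92 site, chrIV:1224606-1224635, plus strand: ccaaaaagattaGCCGCCgaggtacatcgt
SLZ1 site, chrXIV:271289-271318, minus strand: acaatatgaataGCCGCCgaaattatgccc
VIR1 site, chrVII:428478-428507, minus strand: acagaaaaaactGCCGCCgagatccaagca
IME4 site, chrVII:142002-142031, minus strand: tgtacgccaaaaGCCGCCtaaagacgcata

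Counted from 1 at the 5′ end of the long form, the VIR1 site differed by T1C and A2T and the IME4 site by T1A and G9T. Each of these sites therefore matched 8 of 10 bases. A core whose surroundings match at least 8 of the 10 bases was found in 2.37% of promoters. The VIR1 core lay 111 to 106 bases before its gene. The IME4 core lay 232 to 227 bases before its gene and inside the neighbouring gene YGL193C. A match is a string of letters and not a measured binding site.

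**Figure D1:**
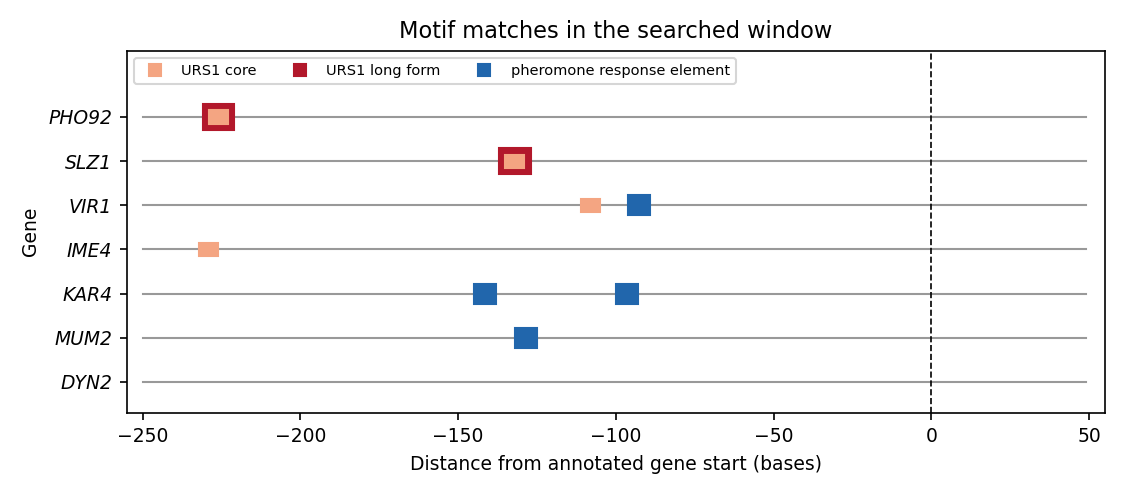
Motif matches in the window from 250 bases before to 50 bases after the annotated start of each gene, with distance from the start in bases on the horizontal axis. Dark red marks the long URS1 form of PHO92 and SLZ1, light red the URS1 core, and blue the pheromone response element TGAAACA, which occurs at 2 places before KAR4.

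Levels are in RPKM, which divides the reads of a gene by its length and by library size. The sizes used were 27.7, 25.7, 30.2 and 17.4 M reads for WT, snf2∆, ume6∆ and ume6∆snf2∆, and whole reads per gene could be recovered. The deleted genes followed the labels, with SNF2 at 14 reads in each library without it and UME6 at 1 read in ume6∆ and 6 in ume6∆snf2∆. A change here is the difference of log2(RPKM + 1) between a pair of libraries, a scale that understates it for genes of low level. Ratios are of RPKM, and their 95% intervals cover counting error only. With 1 library for each strain no difference has a replicate check. A gene was called higher or lower at 2-fold on the log2 scale, among the 6520 genes whose mean over the libraries reached 1 RPKM, and all 5 members were among them. Against WT, the median change of all these genes was -0.11 in snf2∆, -0.30 in ume6∆ and 0.06 in ume6∆snf2∆. The double deletion had a median of 0.35 over ume6∆ and 0.14 over snf2∆. Comparisons that share a library share its chance values.

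The libraries also differed in mating-type genes. Summed over 6 a-cell genes, the level was 1018 RPKM in WT, 24.3 in snf2∆, 930.1 in ume6∆ and 83.1 in ume6∆snf2∆. The sum over 6 alpha-cell genes was 56.2, 42.3, 3026 and 8530 RPKM in WT, ume6∆, snf2∆ and ume6∆snf2∆. No gene of either list was at 0 in any library. In snf2∆ over WT, 6 of the 6 a-cell genes were at least 2-fold lower and 6 of the 6 alpha-cell genes higher. The same held for ume6∆snf2∆ over WT and over ume6∆. All comparisons of a library without SNF2 with one that has it therefore also set an alpha-cell pattern against an a-cell pattern. The part of this difference in the values below was not tested. The double deletion also stood apart at a pair of genes that are commonly used as nutritional markers: MET17, of homocysteine synthesis, was at 2350.2 RPKM there against 1.12 or less elsewhere, and LYS2, of lysine synthesis, at 0.385 against 91.0 or more. Comparisons with the double deletion therefore differ at these genes too, also that with snf2∆, and their part in the values below was not tested. The sum over 8 genes of spore formation stayed low, between 28.9 RPKM in ume6∆ and 42.6 in WT. Of the 8, 0 were at least 2-fold higher in ume6∆ than in WT, beside 4.59% of all genes.

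PHO92, the reader gene (YDR374C, chromosome IV, 1223474 to 1224394), was close to silent in both libraries that have UME6 and well expressed in both that lack it. Its level was 0.587 RPKM in WT, 0.635 in snf2∆, 60.2 in ume6∆ and 59.3 in ume6∆snf2∆. These values rest on 15, 15, 1673 and 951 reads. The low pair and the high pair are far apart. Within each pair the levels did not differ beyond counting error at the deposited scaling. WT placed PHO92 above 1.76% of genes and ume6∆ above 70.1% of them.

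On loss of UME6 the ratio for PHO92 was 103 with SNF2 present (ume6∆ over WT, interval 62.0 to 184) and 93.4 without SNF2 (ume6∆snf2∆ over snf2∆, interval 56.3 to 167). The log2 changes were 5.27 and 5.20. Their difference, taken on log2 RPKM without a pseudocount, was -0.14 with a counting interval of -1.17 to 0.90, which is wide because of the 15 reads in each low library. On the same scale, the median over 6496 genes above 0 in all libraries was 0.50. With median ratio scaling the PHO92 difference, on log2(RPKM + 1), went from -0.065 to -0.46. Loss of SNF2 gave ratios of 1.08 with UME6 present (interval 0.492 to 2.37) and 0.984 without it (interval 0.908 to 1.07). Both intervals include 1, and the second is much the narrower because it rests on the well expressed pair. The second value depended on the scaling, however: its log2 change of -0.023 became -0.38 with median ratio and -0.26 with upper quartile scaling, below the counting interval.

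SLZ1, the writer subunit gene (YNL196C, chromosome XIV, 270275 to 271171), followed the same division with a further step in the double deletion. Its level was 3.78 RPKM in WT, 2.69 in snf2∆, 32.5 in ume6∆ and 70.8 in ume6∆snf2∆, from 94, 62, 880 and 1106 reads. Each neighbouring pair in the order of levels differed beyond counting error, the WT and snf2∆ pair only barely (ratio 1.40, interval 1.01 to 1.97). Loss of UME6 gave a ratio of 8.60 with SNF2 present (interval 6.95 to 10.8) and 26.3 without it (interval 20.3 to 34.5), or log2 changes of 2.81 and 4.28.

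The change of SLZ1 on loss of UME6 was thus larger in the strains without SNF2, by 1.61 on log2 RPKM (counting interval 1.13 to 2.09), where the median gene differed by 0.50 on the same scale. Loss of SNF2 moved SLZ1 by -0.37 where UME6 was present and by 1.10 where it was absent. The second value is 0.75 above the all-gene median of that comparison, and scaling each library by its median ratio to the geometric mean takes it below 2-fold, to 0.74. SLZ1 ranked above 5.68% of genes in WT and 69.1% in ume6∆snf2∆.

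IME4, the catalytic subunit gene (YGL192W, chromosome VII, 142246 to 144048), went the other way. Its level was 54.5 RPKM in WT, 30.7 in snf2∆, 15.4 in ume6∆ and 22.1 in ume6∆snf2∆, from 2726, 1419, 836 and 694 reads. WT was the highest library and ume6∆ the lowest. All neighbours in the order differed beyond counting error at the deposited scaling, but the log2 change of 0.50 for ume6∆snf2∆ over ume6∆ fell to 0.15 with median ratio scaling. The ratio of ume6∆ over WT was 0.282 (interval 0.261 to 0.305) and that of ume6∆snf2∆ over snf2∆ was 0.720 (interval 0.657 to 0.789). The log2 changes were -1.76 and -0.46, so only the first reached 2-fold.

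These IME4 values cannot be read as messenger RNA of IME4. RME2 is an antisense RNA that runs across the whole of IME4 on the opposite strand (chromosome VII, 141898 to 144120), and in haploid cells its transcription is known to block that of IME4. The library kit does not mark strand. RME2 has a line of its own in the expression table, at 54.5 RPKM in WT, 30.5 in snf2∆, 15.4 in ume6∆ and 22.4 in ume6∆snf2∆, and the ratio of its RPKM to that of IME4 lay between 0.994 and 1.01 in the 4 libraries. Of the 2223 bases of RME2, 81.1% lie inside IME4, so both values cover the same stretch of the genome.

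The stretch beyond IME4 carried a similar density. If the reads of IME4 are all counted in RME2 too, the 420 bases of RME2 outside IME4 held 54.2, 29.7, 15.6 and 23.8 RPKM in WT, snf2∆, ume6∆ and ume6∆snf2∆. YGL193C (chromosome VII, 141916 to 142227), which lies within RME2 and on its strand, 18 bases from IME4, had 50.5 RPKM in WT, 28.6 in snf2∆, 15.0 in ume6∆ and 21.0 in ume6∆snf2∆. All 3 annotated genes thus share 1 pattern over the libraries and nearly 1 level. RME2 contains both IME4 and YGL193C, so these are not 3 separate observations. COX13, a subunit of cytochrome oxidase 759 bases beyond the end of IME4, was higher throughout, at 227 RPKM in WT, 153 in snf2∆, 99.4 in ume6∆ and 155 in ume6∆snf2∆.

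**Figure D2:**
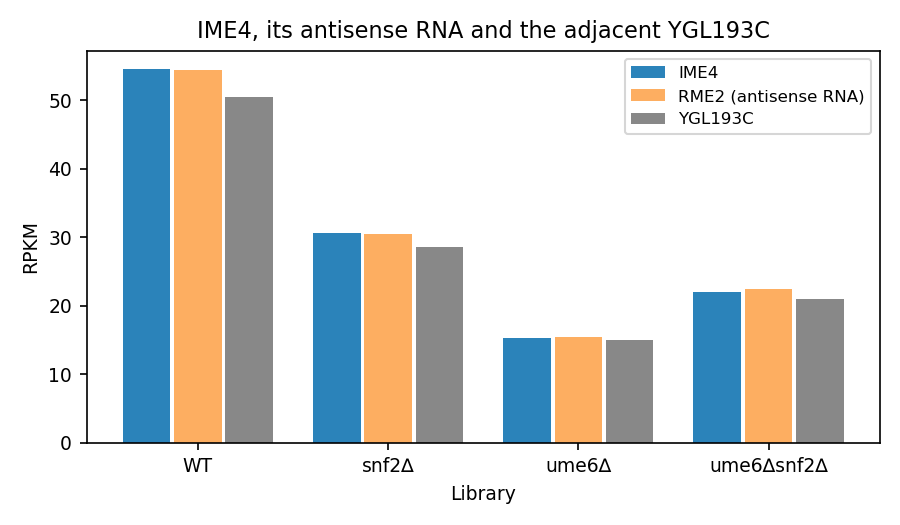
RPKM (vertical axis, linear from 0) of IME4, of its antisense RNA RME2 and of YGL193C in the 4 libraries. The 3 bars of each library stand at nearly the same height, from 50.5 to 54.5 RPKM in WT down to 15.0 to 15.4 in ume6∆, and the kit does not mark which strand the reads came from.

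MUM2, the gene of the WTAP-like subunit (YBR057C, chromosome II, 352193 to 353293), varied least. Its level was 36.8 RPKM in WT, 45.2 in snf2∆, 35.7 in ume6∆ and 60.1 in ume6∆snf2∆, from 1123 to 1277 reads. The highest library was 1.69 times the lowest (interval 1.55 to 1.83), and WT and ume6∆ did not differ beyond counting error (ratio of ume6∆ over WT 0.969, interval 0.892 to 1.05). No comparison reached 2-fold. Its log2 change of -0.04 for ume6∆ over WT turned to 0.25 with median ratio scaling, so no direction is given there.

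KAR4 (YCL055W, chromosome III, 27929 to 28936) was highest in the double deletion. Its level was 21.4 RPKM in WT, 30.4 in snf2∆, 22.6 in ume6∆ and 65.0 in ume6∆snf2∆, from 599, 786, 687 and 1142 reads. The ratio of ume6∆ over WT was 1.05 (interval 0.943 to 1.18), and its log2 change of 0.073 became 0.36 with median ratio and 0.26 with upper quartile scaling, above that interval. The double deletion was 3.03 times WT (interval 2.75 to 3.35), 2.88 times ume6∆ (interval 2.62 to 3.17) and 2.14 times snf2∆ (interval 1.95 to 2.35). On the log2 scale these were 1.56, 1.48 and 1.07, and the last fell to 0.91 with median ratio scaling.

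Because Kar4 works with Ste12 in mating, the pheromone response element TGAAACA was also searched, on both strands. It was found in 7.5% of promoters, at 2 places before KAR4, 1 before MUM2 and 1 before VIR1. The stretch that holds both KAR4 copies runs from 155 bases before the gene and is given on the gene's strand with the elements, read there as TGTTTCA, in capitals.

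KAR4 stretch, chrIII:27774-27845, plus strand: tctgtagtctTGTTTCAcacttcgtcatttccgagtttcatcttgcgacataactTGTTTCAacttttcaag

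Of 16 genes listed for pheromone signalling and its targets, 5 were at least 2-fold higher and 0 lower in ume6∆snf2∆ than in WT. The median of the list was 0.63 against 0.06 for all genes, of which 10.4% were higher and 9.97% lower. With median ratio scaling 3 of the list were higher, beside 9.51% of all genes. The same list had 0 higher and 3 lower in ume6∆ over WT, where its median was -0.19, and 1 higher and 0 lower in snf2∆ over WT, where it was 0.09. Of all genes, 4.59% were higher and 15.2% lower in ume6∆ over WT, and 3.31% and 7.96% in snf2∆ over WT. In ume6∆snf2∆ over ume6∆ the list had 7 higher and 0 lower, beside 11.1% and 3.45% of all genes. Its median there was 0.86 against 0.35. In ume6∆snf2∆ over snf2∆ the list had 2 higher and 0 lower, beside 8.13% and 2.38%, and a median of 0.53 against 0.14. With median ratio scaling the counts were 4 higher and 1 lower over ume6∆, and 0 and 1 over snf2∆. The shares of all genes were then 5.08% and 6.64%, and 6.04% and 3.59%. AGA1, the anchor of the mating agglutinins, had 29.5 RPKM in WT, 28.3 in snf2∆, 11.0 in ume6∆ and 56.7 in ume6∆snf2∆. FUS2, of cell fusion, had 11.5, 7.36, 3.31 and 11.0 RPKM in the same order. STE18, the gamma subunit of the pheromone G protein, had 30.5, 48.8, 39.1 and 24.3 RPKM, and CIK1, a partner of the Kar3 motor, had 15.7, 20.5, 18.9 and 33.5. KAR4, AGA1 and CIK1 were highest in the same library, ume6∆snf2∆, which also had the highest sum of alpha-cell genes. STE18 was lowest in that library, and FUS2 stood at 11.0 RPKM there against 11.5 in WT.

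**Figure D3:**
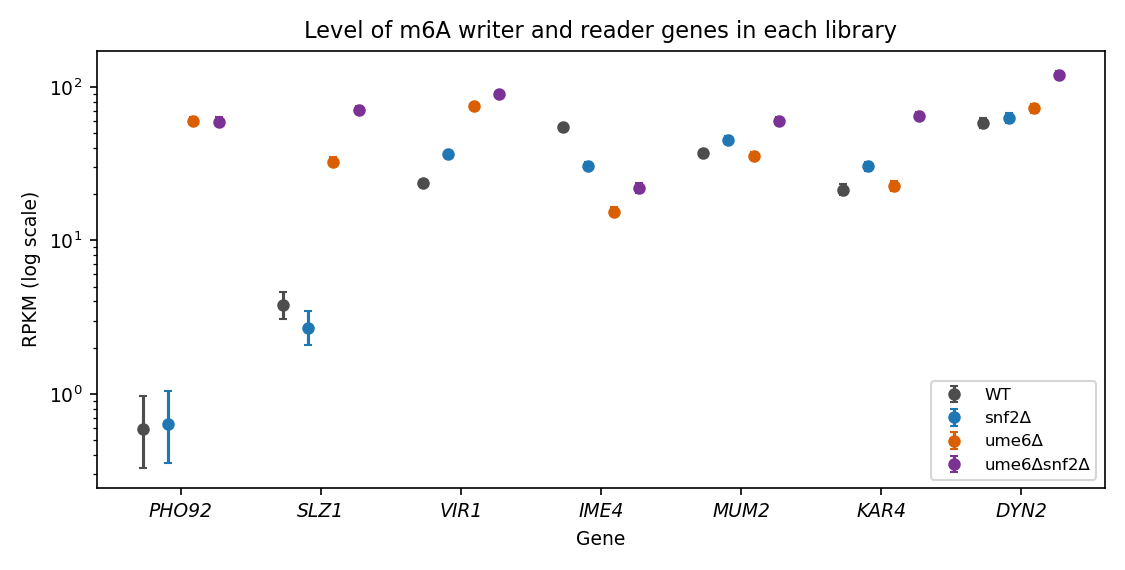
RPKM on a log axis for the 5 members and the cofactors VIR1 and DYN2 (horizontal axis), with a point for each library and bars for the 95% Poisson interval of its reads. PHO92 and SLZ1 separate into a low pair (WT and snf2∆) and a high pair (ume6∆ and ume6∆snf2∆), while IME4 is highest in WT at 54.5 RPKM.

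Set against the background of each comparison, the counts of members were as follows. In snf2∆ over WT, 0 of 5 members were at least 2-fold higher and 0 lower, where 3.31% of all genes were higher and 7.96% lower. For ume6∆ over WT, PHO92 and SLZ1 were higher and IME4 lower, where 4.59% of genes were higher and 15.2% lower. In ume6∆snf2∆ over WT, PHO92, SLZ1 and KAR4 were higher and IME4 lower, where 10.4% of genes were higher and 9.97% lower. Between ume6∆snf2∆ and ume6∆, SLZ1 and KAR4 were higher and 0 members lower, where 11.1% of genes were higher and 3.45% lower. In ume6∆snf2∆ over snf2∆, PHO92, SLZ1 and KAR4 were higher and 0 lower, where 8.13% of genes were higher and 2.38% lower. Median ratio scaling, which brings all-gene medians to near 0, kept these counts in the first 3 comparisons. Its background was then 3.85% higher and 6.79% lower in snf2∆ over WT, 8.79% and 8.37% in ume6∆ over WT, and 9.51% and 10.7% in ume6∆snf2∆ over WT. With it, KAR4 alone was higher in ume6∆snf2∆ over ume6∆ (background 5.08% higher and 6.64% lower), and PHO92 and SLZ1 were higher in ume6∆snf2∆ over snf2∆ (background 6.04% higher and 3.59% lower). Since the list was drawn up with these values known, nothing is read from the counts themselves.

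**Figure D4:**
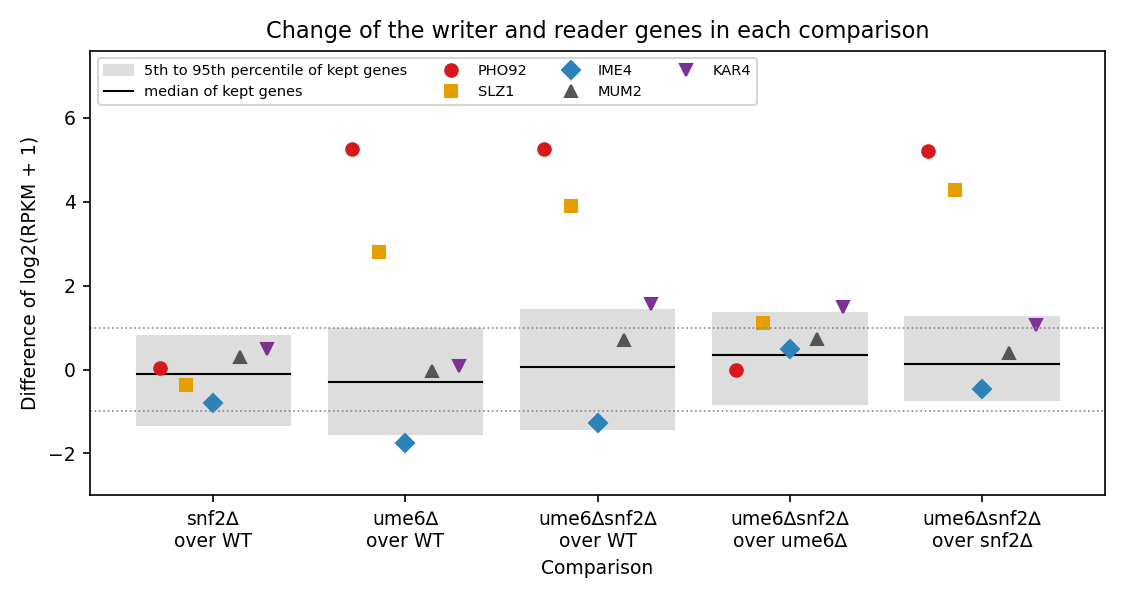
Difference of log2(RPKM + 1) for each member (symbols) in the 5 comparisons on the horizontal axis, over the 5th to 95th percentile (grey) and median (line) of the 6520 genes kept; dotted lines mark 2-fold. PHO92 stands at 5.20 to 5.27 in the 3 comparisons that differ in UME6. In those that differ in SNF2 but not in UME6 it stands at 0.04 and -0.02, and these also differ in mating-type genes.

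The order of the members by RPKM changed between libraries. In WT it was IME4, MUM2, KAR4, SLZ1 and PHO92, with IME4 at 14.4 times SLZ1. In ume6∆ it was PHO92, MUM2, SLZ1, KAR4 and IME4, with IME4 at 0.473 times SLZ1. Across the 4 writer genes, the highest RPKM was 14.4 times the lowest in WT, 16.8 times in snf2∆, 2.32 times in ume6∆ and 3.20 times in ume6∆snf2∆. This ratio of the highest to the lowest was therefore smaller in both libraries without UME6, with the limit that the IME4 value includes its antisense RNA. The lowest writer gene was SLZ1 in WT and snf2∆, and IME4 in ume6∆ and ume6∆snf2∆.

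The writer cofactors were measured in the same way. VIR1 (YGL036W, chromosome VII, 428601 to 431330), which resembles VIRMA of animals, had 23.6 RPKM in WT, 36.3 in snf2∆, 75.0 in ume6∆ and 90.2 in ume6∆snf2∆. Both libraries without UME6 lay above both with it. The ratio on loss of UME6 was 3.18 with SNF2 present (interval 3.02 to 3.35) and 2.48 without it (interval 2.36 to 2.61). For ume6∆snf2∆ over ume6∆ its log2 change was 0.26, which turned to -0.09 with median ratio scaling. DYN2 (YDR424C, chromosome IV, 1319387 to 1319841) had 58.0, 62.6, 72.3 and 119.7 RPKM in WT, snf2∆, ume6∆ and ume6∆snf2∆. Its log2 change of 1.03 for ume6∆snf2∆ over WT was just past 2-fold, and 0.97 with median ratio scaling.

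Splicing efficiency, a fraction given for 298 introns or isoforms, covered 0 of the 5 members and DYN2 with 2 entries. The first DYN2 entry stood at 0.645 in WT, 0.646 in snf2∆, 0.607 in ume6∆ and 0.598 in ume6∆snf2∆. The second stood at 0.718, 0.742, 0.743 and 0.737 in the same order. The formula and the reads behind these fractions are not stated, so their error is not known. Both entries stayed within 0.05 of their WT value in all libraries.

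The change on loss of UME6 was then compared between the strains with and without SNF2, which share no library. The pair with SNF2 has the a-cell pattern and the pair without it the alpha-cell pattern. A dependence on SNF2 and one on mating-type pattern therefore cannot be told apart here. Within the pair without SNF2, the libraries also differ at MET17 and LYS2. The value without SNF2 minus that with it, on log2 RPKM, was 1.35 for IME4 with its antisense RNA (counting interval 1.18 to 1.53), 1.02 for KAR4 (interval 0.82 to 1.23) and 0.46 for MUM2 (interval 0.29 to 0.62). PHO92 and SLZ1 stood at -0.14 and 1.61, as given above. Of the cofactors, VIR1 stood at -0.36 (interval -0.46 to -0.25) and DYN2 at 0.62 (interval 0.42 to 0.81). On this scale the median gene stood at 0.50, so that VIR1 lay below it, MUM2 within 0.05 of it, and IME4, SLZ1 and KAR4 above it. The counting interval of PHO92, -1.17 to 0.90, includes the median gene, so no side is given for PHO92. These differences depended on the scaling. With median ratio scaling, on log2(RPKM + 1), IME4 went from 1.31 to 0.86 and KAR4 from 0.9997 to 0.55. MUM2 then went from 0.45 to -0.0085, VIR1 from -0.34 to -0.80 and DYN2 from 0.61 to 0.15, while SLZ1 went from 1.47 to 1.04.

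**Figure D5:**
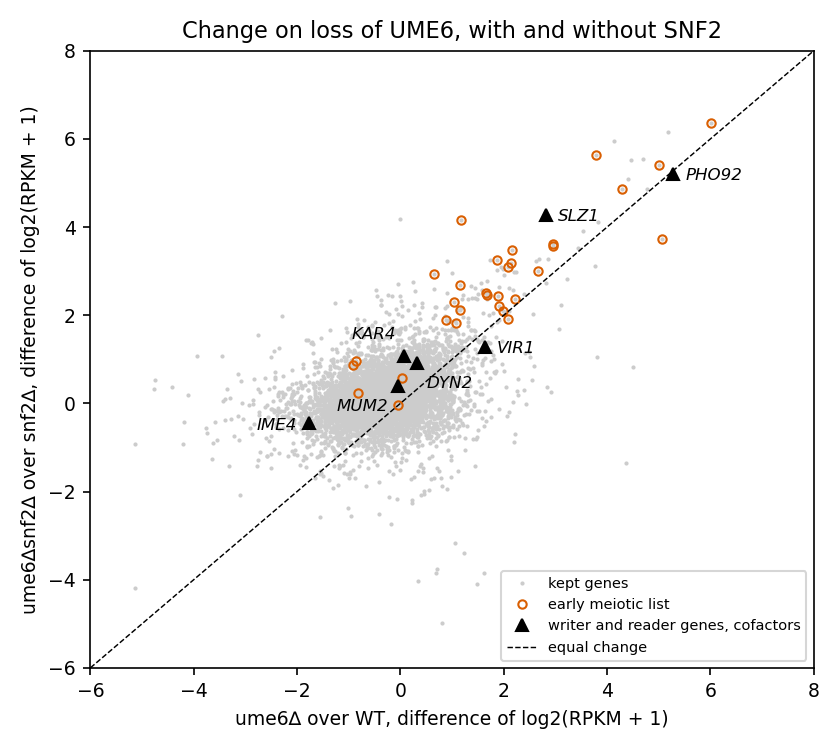
Change on loss of UME6 as a difference of log2(RPKM + 1), with SNF2 (ume6∆ over WT, horizontal axis) and without it (ume6∆snf2∆ over snf2∆, vertical axis); grey points are genes kept, open circles the early meiotic list, triangles the writer and reader genes and cofactors. The axes share no library, PHO92 lies near the line of equal change at 5.27 and 5.20, and SLZ1 lies above it at 2.81 and 4.28.

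PHO92 and SLZ1 were next set beside genes of meiotic prophase, such as those for chromosome axes and recombination. Of 31 such genes kept, 24 passed 2-fold upward and 0 downward in ume6∆ over WT (median 1.89). In ume6∆snf2∆ over snf2∆, a comparison that shares no library with the first, 26 were higher and 0 lower (median 2.51). The share of all genes that was higher was 4.59% in the first comparison and 8.13% in the second. SAE3, a cofactor of the meiotic recombinase, had 0.498, 0.215, 95.2 and 98.8 RPKM in WT, snf2∆, ume6∆ and ume6∆snf2∆, and HOP2, of homolog pairing, had 0.882, 2.41, 62.2 and 44.2. Not all members of that list were higher in ume6∆ than in WT: MER1, a meiotic splicing activator, had 29.8, 8.49, 15.3 and 16.3 RPKM, and CSM4, of telomere-led movement, had 5.51, 3.23, 2.60 and 7.19. In ume6∆snf2∆ over snf2∆ the log2 changes of MER1 and CSM4 were 0.87 and 0.95, upward but short of 2-fold. The long URS1 form was present in the windows of 7 of 32 early meiotic genes, MER1 and CSM4 among them, and the core in 19.

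Among all genes with the long form in the window, PHO92 and SLZ1 included, 14 of 25 were at least 2-fold higher in ume6∆ over WT and 0 lower. In ume6∆snf2∆ over snf2∆, 18 were higher and 0 lower. Of 5796 genes without the long form, 4.11% were higher in ume6∆ over WT and 7.33% in ume6∆snf2∆ over snf2∆. For the core, 15.9% of 301 genes with it and 3.7% of 5520 without it were higher in ume6∆ over WT. In numbers, 48 of the 301 with the core passed 2-fold upward and 41 downward, and the median log2 difference of the 301 was 0.01. Among the 5520 without it, 204 passed upward and 839 downward, and the median was -0.31.

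Genes next to the members were also examined, since a site between a pair of genes can face both. WIP1, a kinetochore protein gene, starts 362 bases from the start of PHO92 and runs the other way. The long URS1 form of PHO92 lies 132 to 141 bases before WIP1, in the space between both genes. WIP1 had 15.8 RPKM in WT, 29.3 in snf2∆, 52.2 in ume6∆ and 48.5 in ume6∆snf2∆. Its ratio was 3.31 for ume6∆ over WT (interval 2.69 to 4.09) and 1.65 for ume6∆snf2∆ over snf2∆ (interval 1.36 to 2.01). FRQ1, the gene of a calcium-binding protein on the other side of PHO92 and 142 bases away, had 60.3, 83.4, 84.8 and 92.1 RPKM in WT, snf2∆, ume6∆ and ume6∆snf2∆ and passed 2-fold in 0 comparisons.

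YNL195C, which lies 351 bases upstream of SLZ1 on the same strand, had 2.98 RPKM in WT, 5.70 in snf2∆, 13.4 in ume6∆ and 17.96 in ume6∆snf2∆. Its ratio on loss of UME6 was 4.48 with SNF2 (interval 3.42 to 5.95) and 3.15 without it (interval 2.51 to 3.97). WHI3, an RNA-binding regulator of cell size 681 bases downstream of SLZ1, had 46.1, 54.8, 43.9 and 64.5 RPKM in the order WT, snf2∆, ume6∆ and ume6∆snf2∆.

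Beside MUM2 lay MNC1, which had 274 RPKM in WT and 6.79 to 10.3 in the other libraries, and UBP14, a ubiquitin protease, at 42.3 to 58.0 RPKM in all 4. Beside KAR4 lay PEX34, of peroxisomes, at 46.9, 31.4, 41.2 and 64.0 RPKM in WT, snf2∆, ume6∆ and ume6∆snf2∆. RDT1, downstream of KAR4, had 40 reads in WT, 17 in ume6∆, and 0 wherever SNF2 was deleted, where the floor is 3 reads. Like the a-cell genes, RDT1 was thus lower in both libraries without SNF2 than in both with it. It was also lower in ume6∆ than in WT (ratio 0.391, interval 0.208 to 0.705), where 0 of the 6 a-cell genes were at least 2-fold lower. Beside VIR1, PNC1, a nicotinamidase, had 160.1, 67.1, 65.9 and 51.3 RPKM and MIG1, the glucose repressor, 54.8, 40.1, 30.6 and 50.7. Beside DYN2, CAD1, a stress transcription factor, had 36.0, 53.2, 28.5 and 55.5 RPKM and SNX41, a sorting nexin, 26.0, 20.4, 11.1 and 18.8.

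Genes with the most similar profiles were found by the root mean square difference of log2(RPKM + 1) over the 4 libraries, each gene centred on its own mean, among 5243 other genes. For PHO92 they were HED1, an inhibitor of the mitotic recombinase in meiosis (0.15), RNP1, a ribonucleoprotein (0.22), and LSO1 (0.34). HED1 had 1.99, 1.99, 94.8 and 125.9 RPKM in WT, snf2∆, ume6∆ and ume6∆snf2∆, RNP1 had 1.83, 1.56, 76.3 and 73.6, and LSO1 had 0.767, 0, 37.7 and 44.98. For SLZ1 they were HOP1, a chromosome axis protein (0.27), ACS1, an acetyl-CoA synthetase (0.36), and GMC2, of the synaptonemal complex (0.38). ACS1 had 7.90, 8.88, 63.3 and 94.1 RPKM. PHO92 had 5 genes and SLZ1 6 genes within a difference of 0.5.

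The other members had many genes of similar profile. IME4 had 1357 genes within 0.5, the nearest being RME2 (0.01), which covers the same stretch, then SHE4, of myosin function (0.03), and MHO1 (0.04). KAR4 had 1285, the nearest being HXT11, a hexose transporter homolog (0.09), OM14, of the mitochondrial outer membrane (0.12), and BNS1 (0.12). MUM2 had 3806, the nearest being TEM1, a GTPase of mitotic exit (0.02), OKP1, of the kinetochore (0.03), and ARL3, a GTPase of Golgi transport (0.03). Among the members themselves the closest pair was MUM2 and KAR4 (0.34), followed by IME4 and MUM2 (0.76) and by SLZ1 and PHO92 (0.95).

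Regulators of meiotic entry were mixed. Of 11 genes, 1 was at least 2-fold higher and 4 lower in ume6∆ over WT, UME6 itself among them, with a median of -0.79, and 2 were lower with median ratio scaling. All genes had 4.59% higher and 15.2% lower in that comparison, and 8.37% lower with median ratio scaling. IME2, the meiotic kinase and also on the early meiotic list, had 8.45, 5.13, 34.0 and 32.0 RPKM in WT, snf2∆, ume6∆ and ume6∆snf2∆. RIM4, an RNA-binding activator of meiosis, had 19.2, 14.2, 25.4 and 55.9. RME1, a repressor of meiotic entry whose message is a known target of m6A in meiosis, had 129.8, 35.2, 42.0 and 23.2, highest in WT.

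Complexes linked to Pho92 in RNA decay and transcription were measured next. Of 14 subunits of the CCR4-NOT deadenylase and of the Paf1 complex, 0 were at least 2-fold higher or lower in ume6∆ over WT, with a median of -0.19 that became 0.11 with median ratio scaling, and 1 higher. The all-gene shares at the deposited scaling were 4.59% higher and 15.2% lower. NOT3 had 43.7 RPKM in WT, 43.7 in snf2∆, 84.0 in ume6∆ and 99.6 in ume6∆snf2∆, and NOT5 had 61.9, 72.0, 72.7 and 83.2. CCR4, the catalytic deadenylase, had 100.5, 75.7, 59.8 and 84.3 RPKM, and CAF130 had 22.9, 20.3, 15.2 and 19.0.

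The methyl donor of the writer, S-adenosylmethionine, is made and recycled by the products of 5 listed genes. In ume6∆ over WT, 2 passed 2-fold upward and 0 downward, beside 4.59% and 15.2% of all genes, and the median of the 5 was 0.68. MET6, methionine synthase, had 214 RPKM in WT, 2688 in snf2∆, 1541 in ume6∆ and 3459 in ume6∆snf2∆. SAM2, an S-adenosylmethionine synthetase, had 83.7, 118, 209 and 136 RPKM. The MET17 difference given above, in a gene of the same metabolism, sets the double deletion apart here, and its part in these values was not tested.

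Of 32 genes for other modifications of ribosomal, transfer or messenger RNA, 2 passed 2-fold upward and 0 downward in ume6∆ over WT (median 0.13). The all-gene shares there were 4.59% upward and 15.2% downward. The 2 genes were BMT5, a ribosomal RNA methyltransferase, at 41.0, 36.1, 97.6 and 85.0 RPKM in WT, snf2∆, ume6∆ and ume6∆snf2∆, and TRM11, a transfer RNA methyltransferase subunit, at 50.8, 60.3, 107.5 and 108.7. BMT6 had 21.8, 18.1, 18.4 and 25.1 RPKM and TRM44 46.7, 42.4, 40.2 and 43.9. The 2-fold threshold was passed by 0 of these 32 genes in snf2∆ over WT and by 0 in ume6∆snf2∆ over ume6∆. Among all genes, 3.31% were higher and 7.96% lower in snf2∆ over WT, and 11.1% and 3.45% in ume6∆snf2∆ over ume6∆.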

How the data were processed

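The authors deposited RPKM per gene (reads divided by gene length and library size), 1 column per strain, and a splicing efficiency as a fraction per intron or isoform, with no formula stated. Per the labels' protocols, hot phenol extraction was followed by a TruSeq V2 library, a kit without strand information. The submitters' processing notes name sacCer3, CASAVA and STAR 2.4.0 but not what each did, and the counting step is not given in the sources used here.

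The 3 lines named with a single letter were left out, which left 6659 genes. Of these, 5913 matched RefSeq's R64 annotation, the assembly behind sacCer3. RPKM times annotated length gave whole reads within 0.05 for 99.5% to 99.6% of values above 0. Counting intervals are exact Clopper-Pearson (ratios) or Poisson (levels) at 95%. They cover counting error only, and they treat reads as independent. PCR copies of a molecule are not independent, so the intervals may understate even that error. The interval of a difference of changes is a normal approximation on the logarithm of reads. Differences of log2(RPKM + 1) were used with a mean of at least 1 RPKM. With 1 library for each strain no test was made. The calling step was tested on simulated data.

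The members and 10 further lists were chosen with earlier results of these data known. Genes were named by rule: the members, cofactors and deleted genes, the genes next to each member or cofactor, the 3 nearest profiles, and up to 2 rises and 2 falls of ume6∆ over WT from each list. For the a-cell, alpha-cell and spore formation lists the sums are given. Python 3.11.15, numpy 2.4.6, pandas 2.3.3 and scipy 1.17.1 were used.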

Additional observations from a re-analysis of the deposited data

Results flagged for a closer look

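In 4 cases the change of a member had opposite signs, at the deposited scaling, in the strains with and without the other deleted gene, and none of these differences was tested, since there is 1 library for each strain. IME4 changed by -0.81 (log2) on loss of SNF2 with UME6 present and by 0.50 without UME6, and these values include its antisense RNA. The second value fell to 0.15 with median ratio and 0.27 with upper quartile scaling, and the all-gene median of that comparison was 0.35. SLZ1 changed by -0.37 on loss of SNF2 with UME6 present and by 1.10 without it. MUM2 changed by -0.044 on loss of UME6 with SNF2 present and by 0.40 without it. The counting interval of the first value includes no change, and it became 0.25 with median ratio and 0.15 with upper quartile scaling, so the signs were then alike. PHO92 changed by 0.042 on loss of SNF2 with UME6 present and by -0.023 without it, and both of its counting intervals include no change.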

How the results depend on the processing

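No paired analysis was possible because each strain has 1 library. The settings tried were pseudocounts of 0.1 and 5, no filter on low values, median ratio scaling and upper quartile scaling. Over these, 48 of 50 counts of members at least 2-fold higher or lower were within 1.5 times the main count. The others were for ume6∆snf2∆ over ume6∆, where 1 member was higher with median ratio scaling and 1 with upper quartile scaling, against 2. The limit of 1.5 times passes a step from 3 to 2 members. That step occurred for ume6∆snf2∆ over snf2∆, where KAR4 fell to 0.98 with a pseudocount of 5, 0.91 with median ratio and 0.88 with upper quartile scaling. Of 125 log2 changes of members, 39 moved by more than their counting interval, and 0 of those past 2-fold changed sign. Of 25 differences between the changes on loss of UME6 without and with SNF2, 6 moved in that sense, all with the scalings. Among counts of all genes, ume6∆ over WT gave 299 higher, 573 with median ratio and 467 with upper quartile scaling, and 989 lower, 546 with median ratio scaling. For ume6∆snf2∆ over ume6∆ the 724 higher became 385 with a pseudocount of 5, 331 with median ratio and 427 with upper quartile scaling, and the 225 lower became 433 and 357 with those scalings. For ume6∆snf2∆ over snf2∆ the 530 higher became 336 with a pseudocount of 5, and the 155 lower became 96 with it, 234 with median ratio and 257 with upper quartile scaling. For the scalings, the shift of the all-gene median is part of their construction. Of 500 counts over the 10 other lists, 55 moved. PHO92 rests on 15 reads in WT and in snf2∆, which limits its ratios.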
